A study of Mus musculus with 6 samples.

Results

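Gene expression in cultured mouse cardiac fibroblasts was compared between the secretomes of Ccrl2+ and Ccrl2- heart macrophages, using the pair of arrays titled Ccrl2+/CF and Ccrl2-/CF, 2 of the 6 arrays of the series. Each value below is taken gene by gene from these arrays, and a difference is the log2 level with the Ccrl2+ secretome minus the log2 level with the Ccrl2- secretome. Of 19505 named genes, 10144 had a log2 level of at least 6.55 on 1 or both arrays, the median over all values with a gene name and hereafter the floor, and these are the genes described. The mice carried the C57BL/6N genotype and were aged 15 to 16 weeks. Hearts of 6 wild-type mice were pooled 1 week after TAC (transverse aortic constriction), and their macrophages were sorted by Ccrl2. TAC is a banding of the aorta that overloads the left ventricle with pressure. The cultured cells were kept for 48 h with a secretome or with phosphate-buffered saline (PBS). A further fibroblast array, titled sham, held cells kept with PBS, and 3 arrays held cardiomyocytes under the same conditions. The labels leave it unclear whether fibroblasts met macrophages or only their secreted products, because the protocol speaks of shared culture, the source names the secretome, and a description names cardiac macrophages as the cells measured. With 1 array in each of the 6 groups, differences could not be checked against replicates or tested, and that number bounds how precise they are. How the hearts, the secretomes and the fibroblasts vary between preparations cannot be seen in these data.

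Cardiac fibroblasts make and remodel the matrix of the heart and also act as sentinels. Interleukin 1 and tumour necrosis factor from macrophages act on fibroblast receptors that release the transcription factor NF-kB from its inhibitors, and NF-kB then drives chemokines, cytokines, adhesion molecules and its own inhibitors. Interferons act through STAT and IRF factors on antiviral genes and on antigen presentation. Glucocorticoids bind a nuclear receptor that induces a set of genes of its own, among them Fkbp5 and Tsc22d3, and that can restrain NF-kB. Ccrl2 is a receptor that binds the chemoattractant chemerin and is not known to signal.

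The inflammatory genes lay higher with the Ccrl2- secretome, and genes that respond to glucocorticoids lay higher with the Ccrl2+ secretome. The title of the series calls the Ccrl2 macrophage inflammatory, so the measured direction runs against that wording, and every direction given here follows the array labels. The files used here do not settle whether the labels of this pair could have been exchanged, which would turn every direction. On the array with the Ccrl2+ secretome, 9 CXC chemokine genes past the floor had a median difference of -4.05, 11 interferon-induced GTPase genes -4.67 and 38 mitosis genes -1.85, while 19 genes of the glucocorticoid response had a median of 2.6. The median difference of all genes past the floor was 0. A gene that passed the floor only on the array where it was high had to differ, as 5 of the 9 CXC genes and 6 of the 11 GTPase genes did on the Ccrl2- array and 5 of the 19 glucocorticoid genes on the Ccrl2+ array. Over all members on the array, with no floor, the medians were -1.46, -4.67, -1.84 and 1.85 in the order given. Levels on the PBS array stood nearer to those with the Ccrl2+ secretome for most of the inflammatory genes, and nearer to those with the Ccrl2- secretome for most of the glucocorticoid genes, as the plot of levels on the 3 fibroblast arrays shows.

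**Figure D1:**
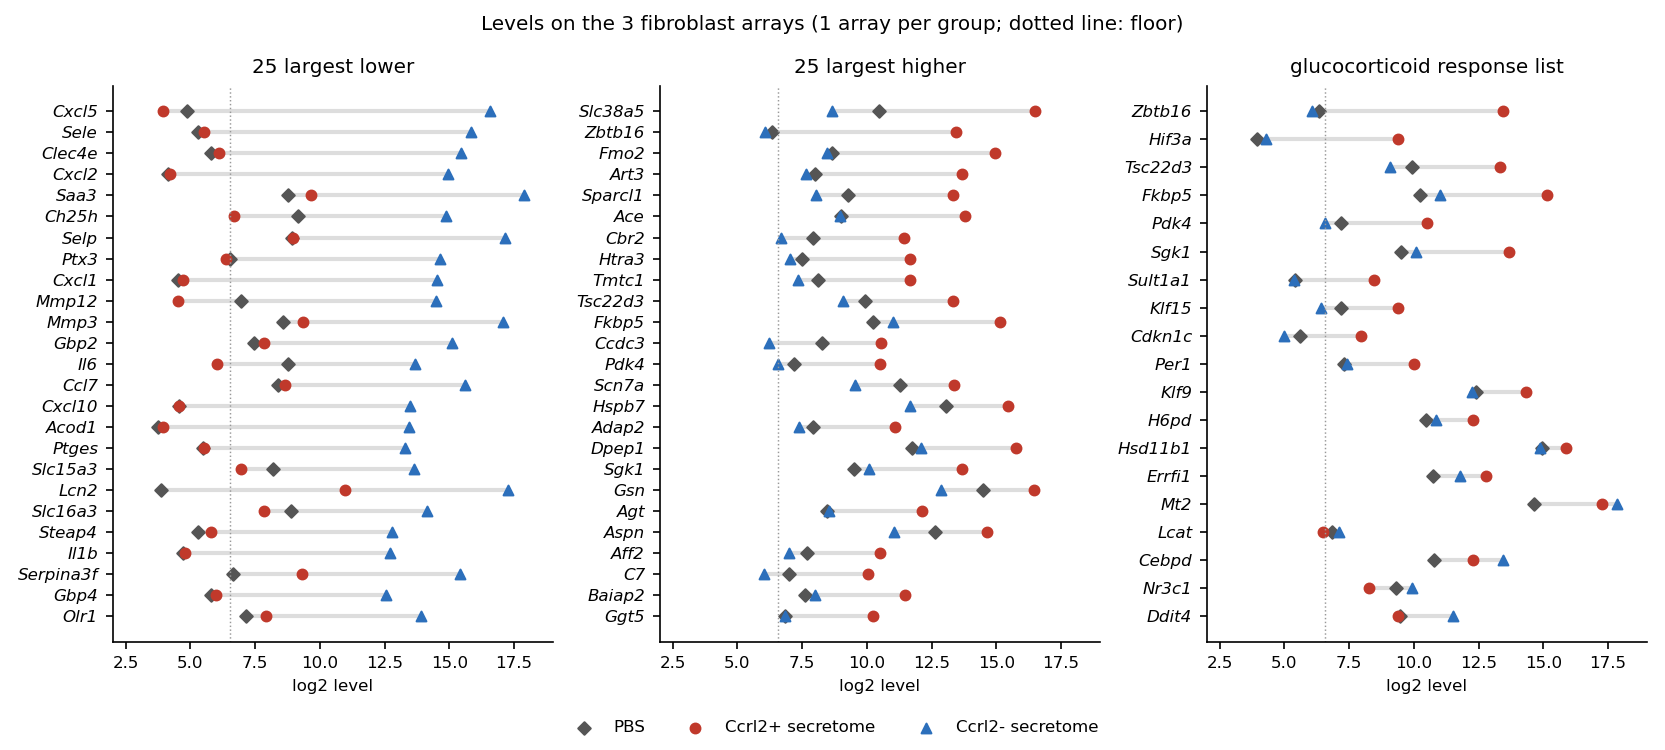
Log2 levels on the fibroblast arrays with PBS (diamonds), Ccrl2+ secretome (circles) and Ccrl2- secretome (triangles) for the 25 genes with the largest negative difference, the 25 with the largest positive difference and the 19 glucocorticoid response genes past the floor, with 1 array per group and the floor of 6.55 as a dotted line. Most triangles of the first panel lie far to the right of the other symbols (Cxcl5 at 16.56 against 3.93 and 4.86), and most circles of the other panels do so (Zbtb16 at 13.44 against 6.05 and 6.35). Both sets of 25 were ranked by their difference with levels under the floor counted at the floor. The separation of circles and triangles in the first and second panel is therefore how they were picked.

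In total 867 genes were at least 2-fold higher with the Ccrl2+ secretome, 8.55% of those past the floor, and 1022 were at least 2-fold lower, 10.1%. The negative control probe sets of the array differed as often at this fold. These percentages are the background for the list counts below, and a list with similar shares does not stand apart. At 2-fold or more, 19% of the 3008 such probe sets past the floor differed, against 18.6% of genes, so a 2-fold difference of a single gene is no more frequent than among controls. At larger folds the shares parted, with 5.51% of genes and 3.59% of controls at 4-fold, 2.3% and 0.898% at 8-fold, and 0.591% and 0.233% at 32-fold. At 8-fold the genes were mostly lower with the Ccrl2+ secretome, 168 (1.66%) against 65 higher (0.641%), and at 32-fold 54 (0.532%) against 6 (0.0591%). Binned by the brighter of both levels, genes exceeded controls at 8-fold only among dim features, with 1.9% against 0.339% at levels of 8 to 10 and 0.981% against 0.446% under 8. Among brighter features controls differed as often or more often, with 9 of 331 (2.72%) against 2.47% of genes at 10 to 12, 3 of 90 (3.33%) against 2.42% at 12 to 14, and 5 of 60 (8.33%) against 5.27% above 14. In cardiomyocytes given the same secretomes, 15.8% of negative controls differed by at least 2-fold, but only 31 of 9995 genes (0.31%) did and 0 genes reached 3-fold. Some spike-in transcripts were brighter on the Ccrl2+ fibroblast array. The 4 with poly-A tails gave a median difference of 0.89 and the 4 added at hybridisation one of 0.33. The 63 ERCC spike-in controls, with median levels under the floor (4.23 with Ccrl2+ and 4.15 with Ccrl2-), gave a median difference of 0 (-0.57 to 2.86). Their part in the results was not tested.

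**Figure D2:**
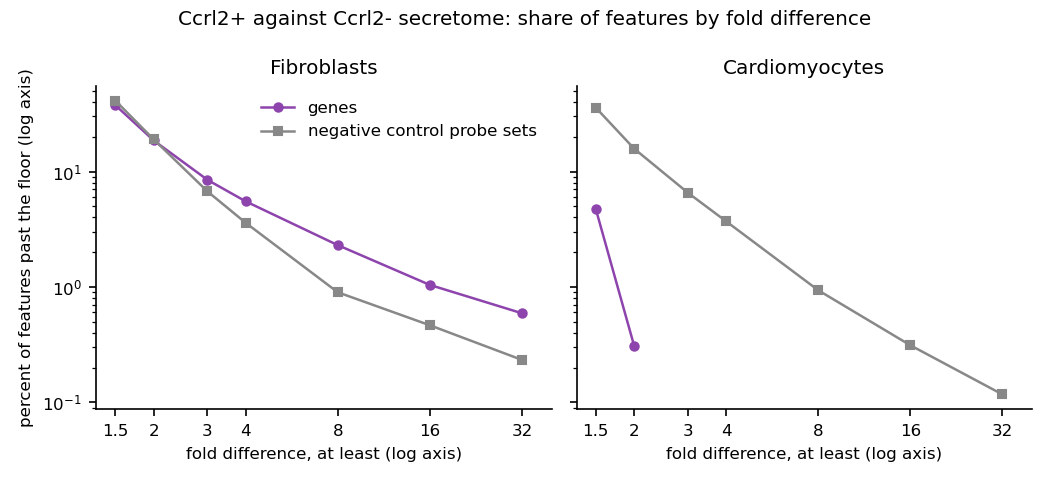
Percent of genes (circles) and of negative control probe sets (squares) past the floor that differed between the Ccrl2+ and Ccrl2- secretome by at least the fold on the horizontal axis, in fibroblasts and cardiomyocytes, both axes on a log scale and 1 array per group. In fibroblasts both lines start together (18.6% and 19% at 2-fold) and genes lie above controls from 3-fold on. In cardiomyocytes 0.31% of genes and 15.8% of controls differ by 2-fold, and no gene reaches 3-fold.

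The labelled cell type fitted the markers on all 3 arrays. Tcf21, a transcription factor of cardiac fibroblasts, had a log2 level of 15 in PBS, 15.19 with Ccrl2+ and 14.15 with Ccrl2-. The matrix genes Dcn (17.66 with Ccrl2-, 17.64 with Ccrl2+) and Col3a1 (17.22 and 17.15) had close log2 levels on both secretome arrays. Pdgfra was not among the named genes. Sarcomere transcripts were present as well, led by Tnnt2, the cardiac troponin T gene, with a log2 level of 16.12 in PBS, 17.03 with Ccrl2+ and 15.08 with Ccrl2-. Leukocyte transcripts were present too, with the common leukocyte antigen gene Ptprc at 9.06 in PBS, 9.18 with Ccrl2+ and 9.17 with Ccrl2-. In such mixed cultures fewer cells of a type and less RNA per cell cannot be told apart.

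The largest single difference was that of a chemokine gene, Cxcl5. All 7 CXC chemokine genes called were lower with the Ccrl2+ secretome, 7 of 9 past the floor, with differences from -12.63 to 0.32 over the 9. The remaining 6 of the 15 CXC genes on the array stayed below the floor, and the median of -4.05 was -8.89 and -9.35 at the stricter floors. Cxcl5, a ligand of the neutrophil receptor Cxcr2, had a log2 level of 4.86 in PBS, 3.93 with Ccrl2+ and 16.56 with Ccrl2-, and was thus at least 10.01 lower with Ccrl2+. Cxcl2 had a level of 4.12 in PBS, 4.2 with Ccrl2+ and 14.95 with Ccrl2- (at least 8.4 lower) and Cxcl1 a level of 4.52 in PBS, 4.72 with Ccrl2+ and 14.52 with Ccrl2- (at least 7.97 lower). These 3 neutrophil attractants were below the floor with PBS and with Ccrl2+, so only the Ccrl2- array held a measurable level. Cxcl10, which attracts T cells and is induced by interferons, behaved alike (4.57 in PBS, 4.58 with Ccrl2+ and 13.47 with Ccrl2-, at least 6.92 lower). Cxcl3 followed with 5.73 in PBS, 6.25 with Ccrl2+ and 10.3 with Ccrl2-, and Cxcl16, a membrane-bound scavenger and chemokine, with 11.79 in PBS, 12.17 with Ccrl2+ and 15.56 with Ccrl2-, a difference of -3.39. The homeostatic chemokine gene Cxcl12 (13.12 against 13.97) and the platelet factor gene Pf4 (8.28 against 7.96) differed by less than 2-fold.

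Among CC chemokine genes 8 of 11 past the floor were lower with Ccrl2+ and 1 was higher, with a median difference of -3.06 (-0.71 with no floor, -4.96 and -5.54 at stricter floors). The monocyte attractants Ccl7 (8.38 in PBS, 8.66 with Ccrl2+ and 15.6 with Ccrl2-) and Ccl2 (12.02 in PBS, 12.46 with Ccrl2+ and 17.7 with Ccrl2-) were lower in log2 level by 6.94 and 5.24. Ccl2 was thus past the floor on every array, unlike Cxcl5, Cxcl2, Cxcl1 and Cxcl10. Ccl3, a macrophage attractant, was already at 11.34 with PBS and differed by -5.85 (11.2 against 17.05). Ccl20, which attracts Ccr6-bearing lymphocytes, was at least 3.75 lower and Ccl5 at least 2.74 lower. Ccl6, the higher member, had a log2 level of 7.24 in PBS, 10.29 with Ccrl2+ and 8.12 with Ccrl2-, so it was 2.17 higher. Ccl17 (7.11 against 7.05) and Ccl25 (7.31 against 7.74) differed by less than 2-fold. Macrophages also make many of these chemokines, and the macrophage markers of the culture summed to a log2 level of 16.08 with Ccrl2+ and 15.42 with Ccrl2-. Single markers went both ways, 10 higher and 5 lower of 23 past the floor, with a median difference of 0.28. Which cells carried the transcripts was not tested.

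The stretches before the start sites of Cxcl2 and Cxcl1 show a letter pattern that many genes of this group carry, the NF-kB motif, searched on both strands in windows of 250 bases before to 50 bases after each RefSeq start (assembly GRCm38.p6). Of 19505 genes 15691 had a window, some of them several. The motif was found in 4 of 7 windows of the CXC list, in 26 of 148 windows (17.6%) of genes at least 8-fold lower with Ccrl2+, in 0 of 72 windows of genes at least 8-fold higher, and in 4.8% of all 19143 windows. The 180 bases before the start are printed 5′ to 3′ on the gene's strand with the match in capitals, Cxcl2 from chr5:90903719-90903898 (plus strand) and Cxcl1 from chr5:90891065-90891244 (plus strand). Both genes hold the same marked bases, in which 2 matches overlap, 97 and 96 bases before the start in Cxcl2 and 71 and 70 in Cxcl1.
Cxcl2: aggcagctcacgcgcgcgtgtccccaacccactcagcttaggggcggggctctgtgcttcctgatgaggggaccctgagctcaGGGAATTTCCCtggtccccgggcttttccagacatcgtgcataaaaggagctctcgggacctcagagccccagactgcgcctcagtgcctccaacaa
Cxcl1: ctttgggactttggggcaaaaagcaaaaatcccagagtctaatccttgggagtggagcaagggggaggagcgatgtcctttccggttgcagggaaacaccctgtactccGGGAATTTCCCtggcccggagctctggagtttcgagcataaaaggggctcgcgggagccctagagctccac

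Cytokine ligand genes followed the chemokines. Of 16 past the floor 11 were lower with Ccrl2+ and 3 higher, with a median difference of -2.0 (-1.22 with levels below the floor counted at the floor). The median ranged from -0.59 with no floor to -7.79 at the strictest floor, since 10 of these genes passed the floor only on the Ccrl2- array and 1 only on the Ccrl2+ array. Il6, the inducer of the acute phase, had a log2 level of 8.79 in PBS, 6.03 with Ccrl2+ and 13.67 with Ccrl2- and was at least 7.12 lower. The PBS level lay between the secretome arrays, nearer to the floor. Il1b (4.73 in PBS, 4.78 with Ccrl2+ and 12.72 with Ccrl2-), Il1a (3.46 in PBS, 3.56 with Ccrl2+ and 11.68 with Ccrl2-) and Tnf (5.04 in PBS, 3.69 with Ccrl2+ and 12.3 with Ccrl2-), the classical upstream cytokines of NF-kB, had levels past the floor only with Ccrl2-, and were at least 6.17 lower, at least 5.13 lower and at least 5.75 lower. Lif, an interleukin 6 family member, was at least 3.89 lower, and the interleukin 1 receptor antagonist gene Il1rn at least 1.73 lower. Il15, a growth factor for natural killer cells, went the other way with a log2 level of 8.82 in PBS, 10.76 with Ccrl2+ and 7.71 with Ccrl2-, 3.05 higher. The cardiotrophin gene Ctf1 (8.59 against 8.27) and Il18 (8.08 against 7.25) differed by less than 2-fold. The Il6 stretch, chr5:30012934-30013113 on the plus strand, is shown because its NF-kB match lies 44 bases before the start.
Il6: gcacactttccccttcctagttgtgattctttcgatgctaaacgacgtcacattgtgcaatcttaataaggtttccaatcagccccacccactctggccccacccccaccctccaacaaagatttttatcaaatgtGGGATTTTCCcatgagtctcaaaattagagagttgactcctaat

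Cytokine receptor genes differed less than their ligands. Of 24 past the floor 9 were lower and 1 higher, with a median difference of -0.55. Il13ra2, a decoy receptor for interleukin 13, was at least 2.48 lower (4.54 in PBS, 4.78 with Ccrl2+ and 9.03 with Ccrl2-). Tnfrsf11b, the decoy receptor osteoprotegerin, was at least 2.65 lower, and the costimulatory receptor Cd40 2.43 lower. The tumour necrosis factor receptor genes separated: Tnfrsf1b was lower (10.84 in PBS, 9.95 with Ccrl2+ and 12.04 with Ccrl2-, 2.09 lower), while Tnfrsf1a stood at 13.3 in PBS, 13.52 with Ccrl2+ and 13.43 with Ccrl2-. Ifngr1, a subunit of the interferon gamma receptor, differed by 0.11. Il6ra, the interleukin 6 receptor, was 1.41 higher (8.56 in PBS, 9.98 with Ccrl2+ and 8.57 with Ccrl2-).

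Pattern recognition genes were mostly lower with Ccrl2+, 15 of 22 past the floor against 4 higher, median difference -1.28. Of the 22, 4 passed the floor only on the Ccrl2- array and 1 only on the Ccrl2+ array, so their direction was fixed. Clec4e encodes Mincle, a receptor for mycobacterial glycolipid and for products of dying cells, and had a log2 level of 5.79 in PBS, 6.1 with Ccrl2+ and 15.47 with Ccrl2-, at least 8.92 lower. Tlr2 (9.77 in PBS, 9.73 with Ccrl2+ and 14.68 with Ccrl2-), a receptor for bacterial lipoproteins, was 4.95 lower, the lipopolysaccharide co-receptor gene Cd14 (8.54 in PBS, 7.28 with Ccrl2+ and 11.3 with Ccrl2-) 4.02 lower, and the RNA helicase gene Dhx58 at least 2.86 lower. Toll-like receptors of the endosome were among the higher members, Tlr7 (11.65 in PBS, 12.43 with Ccrl2+ and 10.23 with Ccrl2-) by 2.2 and Tlr13 (8.79 in PBS, 9.7 with Ccrl2+ and 7.52 with Ccrl2-) by 2.18. Tlr4 (12.48 against 12.18) and the adaptor gene Tirap (9.29 against 9.1) differed by less than 2-fold.

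NF-kB subunit and feedback genes were lower throughout, 16 of 22 by at least 2-fold and 0 higher, with every difference below 0 and a median of -2.26. All 22 on the array were past the floor, 3 of them only on the Ccrl2- array. Tnfaip3 encodes A20, the deubiquitinase that ends NF-kB signalling, and had a log2 level of 8.46 in PBS, 8.67 with Ccrl2+ and 14.45 with Ccrl2-, 5.78 lower. The feedback genes Zc3h12a (7.19 in PBS, 7.67 with Ccrl2+ and 11.97 with Ccrl2-), an RNase that degrades cytokine messages, and Tnip1 (9.59 in PBS, 9.71 with Ccrl2+ and 13.7 with Ccrl2-), a partner of A20, were 4.3 lower and 3.99 lower. Tnfaip2, a tumour necrosis factor target, was 4.04 lower, the atypical inhibitor gene Bcl3 3.56 lower and Traf1 at least 0.23 lower. Nfkbia, the inhibitor IkB alpha, had a level of 10.2 in PBS, 11.14 with Ccrl2+ and 14.26 with Ccrl2-, 3.12 lower. Cyld (9.83 against 10.15) and Nfkbib (11.33 against 11.47) lay nearest to 0. The NF-kB motif was found in 11 of 23 windows (47.8%) of the genes of this list.

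Acute phase genes had the lowest median of the lists with at least 5 genes past the floor, -5.45 over 10 genes, 8 lower and 1 higher. Over all 19 members on the array, with no floor, the median was -0.77. Saa3, a serum amyloid A gene made outside the liver, had a log2 level of 8.77 in PBS, 9.65 with Ccrl2+ and 17.88 with Ccrl2-, 8.23 lower. The pentraxin gene Ptx3 stood at 6.53 in PBS, 6.36 with Ccrl2+ and 14.65 with Ccrl2- (at least 8.1 lower) and the metalloreductase gene Steap4 at 5.28 in PBS, 5.79 with Ccrl2+ and 12.78 with Ccrl2- (at least 6.23 lower). Lcn2, an iron-siderophore trap, was graded: 3.85 in PBS, 10.96 with Ccrl2+ and 17.28 with Ccrl2-, so it was past the floor on both secretome arrays and 6.32 lower with Ccrl2+. The haptoglobin gene Hp was graded too (7.58 in PBS, 9.92 with Ccrl2+ and 14.7 with Ccrl2-, 4.78 lower). The serine protease inhibitors separated, with Serpina3f (6.66 in PBS, 9.3 with Ccrl2+ and 15.42 with Ccrl2-) 6.12 lower and Serpina3n (8.88 in PBS, 16.37 with Ccrl2+ and 12.98 with Ccrl2-) 3.39 higher. Probes for these near-identical copies can bind related transcripts, as can those for Saa3 and for the Ifit, Gbp, H2, Gstm and Fmo genes below, so values of single copies are uncertain. Serpina3i (8.48 against 10) was 1.52 lower, and the ceruloplasmin gene Cp (15.76 against 16.53) differed by less than 2-fold.

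Interferon-stimulated genes were lower with Ccrl2+ in 24 of 27 cases past the floor and higher in 0, and every difference was below 0 (median -3.08). Of the 27, 6 passed the floor only on the Ccrl2- array and so had to lie below 0. The median ran from -3.62 to -2.915 over the settings tried. Ifit1, an inhibitor of viral translation, had a log2 level of 5.71 in PBS, 5.74 with Ccrl2+ and 11.83 with Ccrl2-, at least 5.28 lower. Its relatives Ifit3 (10.49 in PBS, 9.77 with Ccrl2+ and 14.8 with Ccrl2-) and Ifit3b (10.35 in PBS, 9.2 with Ccrl2+ and 14.67 with Ccrl2-) were 5.03 lower and 5.47 lower. Oasl2 (8.52 in PBS, 9.08 with Ccrl2+ and 13.41 with Ccrl2-), of the oligoadenylate synthetase family, was 4.33 lower, Usp18, which removes ISG15 and dampens interferon signalling, 4.32 lower, and the interferon regulatory factor gene Irf7 at least 3.41 lower. Ifit2 (9.59 against 10.49) and Ifitm2 (17.02 against 17.48) differed by less than 2-fold. Ifit3 and Ifit3b were also somewhat above their Ccrl2+ level with PBS.

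The interferon-induced GTPases, which attack the vacuoles of intracellular microbes, were lower in 11 of 11 genes, median -4.67 (-4.18 counting levels under the floor at the floor). Gbp2 had a log2 level of 7.44 in PBS, 7.86 with Ccrl2+ and 15.1 with Ccrl2-, 7.24 lower. Gbp4 (5.8 in PBS, 5.99 with Ccrl2+ and 12.57 with Ccrl2-) was at least 6.02 lower, Gbp3 (7.95 in PBS, 8.18 with Ccrl2+ and 13.69 with Ccrl2-) 5.51 lower and Tgtp2 (4.44 in PBS, 4.53 with Ccrl2+ and 11.55 with Ccrl2-) at least 5.0 lower. Iigp1, of the immunity-related GTPase family, was at least 4.79 lower, and the smallest differences were those of Gbp8 (5.62 against 7.42) and Irgm1 (11.14 against 13.96). The interferon-stimulated response element, searched as GAAANNGAA on both strands, was found in 7 of 8 windows (87.5%) of this list, 39.1% of windows of the interferon-stimulated list, 23% (34 of 148) of windows of genes at least 8-fold lower with Ccrl2+, 8.33% of those at least 8-fold higher and 7.98% of all windows. Gbp2 (chr3:142620483-142620662, plus strand) and Saa3 (chr7:46715677-46715856, minus strand) are shown as leading genes with a match, 58 and 125 bases before the start. The Gbp2 match reads on the opposite strand.
Gbp2: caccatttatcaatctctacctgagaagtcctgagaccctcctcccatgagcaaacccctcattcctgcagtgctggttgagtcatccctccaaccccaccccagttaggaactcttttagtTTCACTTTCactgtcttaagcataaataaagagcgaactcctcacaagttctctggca
Saa3: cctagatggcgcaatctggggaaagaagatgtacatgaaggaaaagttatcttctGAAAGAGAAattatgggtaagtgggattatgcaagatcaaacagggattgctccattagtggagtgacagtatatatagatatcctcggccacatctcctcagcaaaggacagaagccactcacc

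Antigen presentation through MHC class I was lower in 15 of 17 genes and higher in 0, median -1.72. All 17 on the array were past the floor, 4 of them only on the Ccrl2- array. H2-Q4 (5.49 in PBS, 5.31 with Ccrl2+ and 9.92 with Ccrl2-) was at least 3.37 lower, and the immunoproteasome subunit genes Psmb10 (7.89 in PBS, 7.89 with Ccrl2+ and 11.54 with Ccrl2-) and Psmb8 (6.02 in PBS, 6.56 with Ccrl2+ and 10.2 with Ccrl2-) were 3.65 lower and 3.64 lower. The classical heavy chain gene H2-K1 was 2.2 lower and the peptide-loading gene Tapbp 2.16 lower. B2m, the shared light chain, had high log2 levels of 17.24 in PBS, 17.32 with Ccrl2+ and 18.01 with Ccrl2- and differed by less than 2-fold, as did Psme1. Of the MHC class II list 2 of 9 genes were past the floor, H2-Ab1 (at least 0.5 lower) and the protease gene Ctss (1.57 higher), and the median of 0.02 changed sign with the loess trend removed.

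JAK-STAT and SOCS genes did not differ one way, with 4 of 15 lower and 2 higher, and the median of 0.39 changed sign at stricter floors. The lower members were the interferon regulatory factor gene Irf1 (7.85 in PBS, 7.68 with Ccrl2+ and 11.05 with Ccrl2-, 3.37 lower), the kinase gene Jak2 (10.82 in PBS, 11.31 with Ccrl2+ and 14.18 with Ccrl2-, 2.87 lower), Stat2 (1.66 lower) and Socs3 (at least 0.26 lower). Cish, a feedback inhibitor of STAT5, was 1.39 higher (6.81 in PBS, 8.3 with Ccrl2+ and 6.91 with Ccrl2-) and Irf2 1.09 higher. Stat3 (13.23 against 13.56) and Stat6 (12.79 against 12.49) lay nearest to 0.

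Leukocyte adhesion genes divided into a large and a small difference. Of 10 past the floor 5 were lower with Ccrl2+, each by more than 8-fold, and 0 higher (median -1.88, -0.77 with no floor and -3.3 at the strictest floor). Sele, the endothelial selectin E, had a log2 level of 5.3 in PBS, 5.54 with Ccrl2+ and 15.84 with Ccrl2-, at least 9.29 lower, and Selp, selectin P, 8.93 in PBS, 8.97 with Ccrl2+ and 17.17 with Ccrl2-, 8.2 lower. Icam1 (7.22 in PBS, 7.41 with Ccrl2+ and 13.31 with Ccrl2-) and Vcam1 (14.11 in PBS, 13.77 with Ccrl2+ and 17.24 with Ccrl2-), the integrin ligands that arrest leukocytes, were 5.9 lower and 3.47 lower. The hyaluronan receptor Cd44 was 3.13 lower. Alcam (12.94 against 12.8) and the junction gene Jam2 (12.21 against 11.43) differed by less than 2-fold. Selectins are known from endothelium, and of 13 endothelial markers past the floor 4 were higher with Ccrl2+ and 1 lower. Among them Pecam1 stood at 8.31 in PBS, 8.55 with Ccrl2+ and 8.03 with Ccrl2-, Cdh5 at 10.49 in PBS, 10.29 with Ccrl2+ and 9.96 with Ccrl2-, and Flt1, the lower member, at 9.59 in PBS, 9.41 with Ccrl2+ and 10.79 with Ccrl2-. Their part in the result was not tested.

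The AP-1 motif, TGACTCA on either strand, was added to the search after values were seen. It was found in 21 of 148 windows (14.2%) of genes at least 8-fold lower with Ccrl2+, 5.56% of those at least 8-fold higher and 4.74% of all windows. Of the 25 genes with the largest negative difference, counted from the floor, 21 had a window. The AP-1 motif was in 7 of them (Cxcl10, Gbp2, Il6, Mmp12, Mmp3, Olr1 and Sele). The NF-kB motif was in 6 (Cxcl1, Cxcl10, Cxcl2, Il6, Ptx3 and Steap4). Of the 25 with the largest positive difference, 22 had a window and 0 held either motif. Other motifs searched did not part the leading genes in this way. The interferon-stimulated response element was in 6 lower and 4 higher genes, and the GAS motif, TTCNNNGAA, in 3 and 5. ACGTG was in 4 lower and 7 higher genes, TTTGAA in 3 and 2, and CCAAT in 6 and 9. Sele (chr1:164048054-164048233, plus strand) and Mmp12 (chr9:7347194-7347373, plus strand) are shown with the AP-1 match 73 and 44 bases before the start, in Mmp12 on the opposite strand.
Sele: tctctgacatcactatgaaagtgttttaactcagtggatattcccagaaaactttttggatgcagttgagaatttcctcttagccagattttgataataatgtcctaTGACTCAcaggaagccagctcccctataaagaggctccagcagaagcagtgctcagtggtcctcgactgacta
Mmp12: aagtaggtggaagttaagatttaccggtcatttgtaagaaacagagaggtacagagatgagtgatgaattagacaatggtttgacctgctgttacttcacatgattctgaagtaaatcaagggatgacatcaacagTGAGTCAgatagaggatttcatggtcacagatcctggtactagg

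Enzymes of inflammation were lower in 7 of 11 genes and higher in 1, median -3.27 (-0.87 with no floor). Acod1, which makes the antimicrobial metabolite itaconate, had a log2 level of 3.75 in PBS, 3.94 with Ccrl2+ and 13.43 with Ccrl2-, at least 6.88 lower. Ch25h, the cholesterol 25-hydroxylase, stood at 9.16 in PBS, 6.67 with Ccrl2+ and 14.87 with Ccrl2-, 8.2 lower, with PBS in between. The inducible nitric oxide synthase gene Nos2 was at least 3.43 lower and the mitochondrial superoxide dismutase gene Sod2 3.98 lower (12.13 in PBS, 12.22 with Ccrl2+ and 16.2 with Ccrl2-). Cybb, the phagocyte oxidase subunit, was 3.97 lower (11.13 in PBS, 10.8 with Ccrl2+ and 14.77 with Ccrl2-), and Gch1, which makes the nitric oxide synthase cofactor, 3.27 lower. The higher member was the oxidase gene Nox4 (8.47 in PBS, 8.3 with Ccrl2+ and 6.9 with Ccrl2-, 1.4 higher). Outside this list stood Olr1, a receptor for oxidised lipoprotein (7.14 in PBS, 7.92 with Ccrl2+ and 13.92 with Ccrl2-, 6.0 lower). So did Slc15a3, a lysosomal peptide transporter (8.18 in PBS, 6.96 with Ccrl2+ and 13.62 with Ccrl2-, 6.66 lower). Both were among the 25 largest negative differences counted from the floor. Ncf1 (10.61 against 10.47) and Asl (9.25 against 9.45) lay nearest to 0.

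The prostaglandin list held both directions, 4 lower and 3 higher of 16, and its median of 0.26 changed sign at stricter floors. The inducible synthesis steps were lower: Ptges, prostaglandin E synthase (5.49 in PBS, 5.51 with Ccrl2+ and 13.28 with Ccrl2-, at least 6.73 lower), Ptgs2, cyclooxygenase 2 (6.73 in PBS, 6.18 with Ccrl2+ and 11.87 with Ccrl2-, at least 5.32 lower), and Pla2g4a, cytosolic phospholipase A2 (1.67 lower). Tbxas1, thromboxane synthase (8.24 in PBS, 9.07 with Ccrl2+ and 6.8 with Ccrl2-, 2.27 higher), and Hpgds, prostaglandin D synthase (1.38 higher), were higher. Complement genes were split as well, 6 lower and 3 higher of 17, and the median of 0.24 also changed sign at stricter floors. Cfb, factor B of the alternative pathway, was at least 4.69 lower (4.46 in PBS, 4.36 with Ccrl2+ and 11.24 with Ccrl2-). The classical pathway protease genes C1s2 (at least 1.55 lower) and C1rb (1.69 lower) were lower. C7, of the membrane attack complex, was at least 3.5 higher (6.99 in PBS, 10.05 with Ccrl2+ and 6.02 with Ccrl2-), the lectin pathway protease gene Masp1 1.87 higher, and the inhibitor gene Cd59a 1.63 higher.

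Cell death genes were lower in 8 of 19 cases and higher in 1, median -0.68. Of the 19, 3 passed the floor only on the Ccrl2- array. The nucleic acid sensor gene Zbp1 was at least 1.36 lower, the death receptor gene Fas 2.72 lower (8.46 in PBS, 8.28 with Ccrl2+ and 11 with Ccrl2-) and the inflammasome gene Nlrp3 at least 1.55 lower. Casp4, the lipopolysaccharide-sensing caspase, stood at 10.38 in PBS, 10.91 with Ccrl2+ and 13.54 with Ccrl2- (2.63 lower), and Mlkl, the executor of necroptosis, at 10.7 in PBS, 11.07 with Ccrl2+ and 13.5 with Ccrl2- (2.43 lower). Casp8 (13.97 against 14.14) and Casp1 (7.12 against 6.94) lay nearest to 0. Immediate early and AP-1 genes gave 10 lower and 1 higher of 24, median -0.6. Ier3, a stress-induced survival gene, had the largest difference, with a log2 level of 10.74 in PBS, 9.41 with Ccrl2+ and 15.23 with Ccrl2-, 5.82 lower. Junb (2.57 lower), Egr1 (1.91 lower) and Myc (1.9 lower) were lower, Klf4 (7.83 against 7.81) and Klf2 (6.6 against 6.57) were nearly equal, and the phosphatase gene Dusp1 was 1.21 higher (14.66 in PBS, 14.54 with Ccrl2+ and 13.33 with Ccrl2-).

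Glucocorticoid response genes formed the list with the highest median at the floor used. With Ccrl2+ 14 of 19 past the floor were higher and 3 lower, with a median difference of 2.6 (1.9 counting levels under the floor at the floor, and 1.4 at the strictest floor). Zbtb16, a zinc finger repressor, had a log2 level of 6.35 in PBS, 13.44 with Ccrl2+ and 6.05 with Ccrl2-, at least 6.89 higher. Tsc22d3, which encodes the glucocorticoid-induced leucine zipper GILZ, stood at 9.92 in PBS, 13.31 with Ccrl2+ and 9.09 with Ccrl2- (4.22 higher). Fkbp5, a co-chaperone that dampens the receptor, stood at 10.24 in PBS, 15.15 with Ccrl2+ and 11 with Ccrl2- (4.15 higher). In all 3 the Ccrl2+ array stood alone above both others. The kinase gene Sgk1 (9.49 in PBS, 13.68 with Ccrl2+ and 10.07 with Ccrl2-), the pyruvate dehydrogenase kinase gene Pdk4 (7.19 in PBS, 10.51 with Ccrl2+ and 6.56 with Ccrl2-) and Hif3a (3.93 in PBS, 9.37 with Ccrl2+ and 4.28 with Ccrl2-) were 3.61 higher, 3.95 higher and at least 2.82 higher. Smaller differences were those of the clock gene Per1 (7.29 in PBS, 10 with Ccrl2+ and 7.4 with Ccrl2-, 2.6 higher), the Kruppel-like factor genes Klf15 (at least 2.83 higher) and Klf9 (2.07 higher), and Hsd11b1, the enzyme that regenerates active glucocorticoid in tissue (14.94 in PBS, 15.86 with Ccrl2+ and 14.85 with Ccrl2-, 1.01 higher).

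The receptor gene itself, Nr3c1, was lower with Ccrl2+ (9.3 in PBS, 8.26 with Ccrl2+ and 9.92 with Ccrl2-, 1.66 lower). Ddit4 (9.48 in PBS, 9.37 with Ccrl2+ and 11.49 with Ccrl2-), an inhibitor of the growth kinase mTOR, and Cebpd (10.77 in PBS, 12.29 with Ccrl2+ and 13.42 with Ccrl2-), which also answers to inflammation, were lower by 2.12 and 1.13. Sarcomere and epicardial markers were also higher with the Ccrl2+ secretome, with values below, and their part in these differences was not tested. The metallothionein gene Mt2 was high with both secretomes (14.63 in PBS, 17.27 with Ccrl2+ and 17.85 with Ccrl2-) and differed by less than 2-fold, as did Lcat. In cardiomyocytes the median difference of 18 of these genes was -0.15, and 0 of them reached 2-fold. The receptor motif, searched as ACANNNTGT on both strands, was found in 8 of 72 windows (11.1%) of genes at least 8-fold higher with Ccrl2+, 6.76% of those at least 8-fold lower, 12.5% (3 of 24) of this list and 5.85% of all windows. Among the 25 leading genes in each direction, 3 of 22 higher genes with a window held this motif (Art3, C7 and Sgk1). On the lower side 4 of 21 did (Clec4e, Cxcl1, Lcn2 and Serpina3f). The Sgk1 stretch (chr10:21978492-21978671, plus strand) is shown because it holds a match, 127 bases before the start.
Sgk1: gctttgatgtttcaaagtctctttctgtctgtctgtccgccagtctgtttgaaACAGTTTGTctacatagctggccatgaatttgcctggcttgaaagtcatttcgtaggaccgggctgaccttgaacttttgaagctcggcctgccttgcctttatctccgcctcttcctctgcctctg

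Among the 25 genes with the largest positive difference Slc38a5, a transporter of glutamine and other neutral amino acids, came first with a log2 level of 10.47 in PBS, 16.5 with Ccrl2+ and 8.65 with Ccrl2-, 7.85 higher. Fmo2, a flavin monooxygenase, stood at 8.64 in PBS, 14.93 with Ccrl2+ and 8.47 with Ccrl2- (6.46 higher), and its relatives Fmo1 (7.42 in PBS, 13.07 with Ccrl2+ and 11.18 with Ccrl2-) and Fmo5 (7.34 in PBS, 8.07 with Ccrl2+ and 6.08 with Ccrl2-) were 1.89 higher and at least 1.52 higher. These 3 were the flavin monooxygenase genes past the floor, of 6 on the array, with a median of 1.99 (4.17 at stricter floors). Fmo1 was above PBS with both secretomes, Fmo2 with Ccrl2+ only. Art3, of the ADP-ribosyltransferase family, stood at 7.99 in PBS, 13.68 with Ccrl2+ and 7.65 with Ccrl2- (6.03 higher), and Cbr2, a carbonyl reductase, at 7.92 in PBS, 11.44 with Ccrl2+ and 6.7 with Ccrl2- (4.74 higher). Scn7a, a sodium channel gene, (11.26 in PBS, 13.35 with Ccrl2+ and 9.55 with Ccrl2-) and the small heat shock protein gene Hspb7 (13.06 in PBS, 15.46 with Ccrl2+ and 11.68 with Ccrl2-) were 3.8 higher and 3.78 higher, with PBS between the secretomes. Tmtc1, Ccdc3, Adap2, Aff2 and Baiap2 were 4.3, at least 3.98, 3.69, 3.54 and 3.47 higher.

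The renin-angiotensin list had 2 of 7 genes higher and 0 lower, with a median of 0.58. Ace, the angiotensin-converting enzyme, had a log2 level of 9.01 in PBS, 13.8 with Ccrl2+ and 8.97 with Ccrl2-, 4.83 higher, and Agt, its precursor substrate angiotensinogen, 8.45 in PBS, 12.12 with Ccrl2+ and 8.54 with Ccrl2-, 3.58 higher. The receptor gene Agtr1a (8.13 in PBS, 8.54 with Ccrl2+ and 8.7 with Ccrl2-) and the peptidase genes Enpep (7.2 against 6.62) and Anpep (11.13 against 10.54) differed by less than 2-fold. The peptidase genes Dpep1 and Ggt5, outside this list, were also among the largest positive differences. Dpep1 stood at 11.76 in PBS, 15.74 with Ccrl2+ and 12.1 with Ccrl2- (3.64 higher) and Ggt5 at 6.83 in PBS, 10.25 with Ccrl2+ and 6.82 with Ccrl2- (3.43 higher), and both enzymes act on glutathione and leukotrienes.

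Mitosis genes were lower with Ccrl2+ in 35 of 38 cases and higher in 0, and every difference was below 0, from -3.11 to -0.51. Of the 38, 2 passed the floor only on the Ccrl2- array. The spread was narrow beside that of the inflammatory lists, and the median was -1.85. The checkpoint kinase gene Bub1 had a log2 level of 9.5 in PBS, 7.19 with Ccrl2+ and 10.3 with Ccrl2- (3.11 lower), the kinetochore gene Ndc80 9.5 in PBS, 6.77 with Ccrl2+ and 9.5 with Ccrl2- (2.73 lower), and the spindle midzone gene Prc1 9.98 in PBS, 7.26 with Ccrl2+ and 9.78 with Ccrl2- (2.52 lower). Ccna2, cyclin A2, stood at 11.72 in PBS, 8.83 with Ccrl2+ and 11.31 with Ccrl2- (2.48 lower), and Cdc20, the activator of the anaphase-promoting complex, at 9.1 in PBS, 6.56 with Ccrl2+ and 8.89 with Ccrl2- (2.33 lower). The proliferation marker gene Mki67 stood at 14.19 in PBS, 12.26 with Ccrl2+ and 14.1 with Ccrl2- (1.84 lower). For these genes the PBS level was near the Ccrl2- level and the Ccrl2+ array stood apart below both. Bub3 (13.41 against 14.07) and Anln (8.95 against 9.46) lay nearest to 0. In cardiomyocytes the median difference of the 38 genes was -0.26, with 0 at 2-fold.

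DNA replication genes were lower in 18 of 34 cases and higher in 0, median -1.08 (-0.92 counting levels under the floor at the floor). Of the 34, 7 passed the floor only on the Ccrl2- array. Rrm2, a ribonucleotide reductase subunit, had a log2 level of 11.27 in PBS, 9.17 with Ccrl2+ and 11.57 with Ccrl2- (2.4 lower) and the primase gene Prim1 11.05 in PBS, 8.97 with Ccrl2+ and 11.09 with Ccrl2- (2.12 lower). Cdc45, Uhrf1 and Ccne2 were lower as well (at least 1.95 lower, 1.88 lower and 1.88 lower). Orc1 (6.94 against 6.98) and Dut (6.68 against 6.65) lay nearest to 0. Cell cycle inhibitors and p53 targets gave 6 lower and 4 higher of 20, and the median of -0.25 changed sign at stricter floors and with the arrays centred on negative controls. Cdkn1c (5.6 in PBS, 7.94 with Ccrl2+ and 4.98 with Ccrl2-), the inhibitor p57, and Sesn1 (10.67 in PBS, 11.53 with Ccrl2+ and 9.37 with Ccrl2-) were at least 1.39 higher and 2.16 higher, while Plk2 (10.58 in PBS, 9.66 with Ccrl2+ and 12.54 with Ccrl2-) and Gadd45a were 2.88 lower and 1.31 lower.

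The CHR element TTTGAA, a motif of late cell cycle promoters, was found in 29 of 35 windows (82.9%) of the mitosis list, 15.6% of the DNA replication list and 15.3% of all windows, on either strand. CCAAT was found in 80% of the mitosis windows, 56.2% of the DNA replication windows and 37.9% of all windows. Prc1 (chr7:80294296-80294475, plus strand) and Cdc20 (chr4:118437344-118437523, minus strand) are shown with the CHR match 30 and 18 bases before the start.
Prc1: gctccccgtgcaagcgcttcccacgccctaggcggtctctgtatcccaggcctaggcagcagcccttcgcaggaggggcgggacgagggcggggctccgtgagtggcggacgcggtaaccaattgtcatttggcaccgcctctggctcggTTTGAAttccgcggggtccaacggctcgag
Cdc20: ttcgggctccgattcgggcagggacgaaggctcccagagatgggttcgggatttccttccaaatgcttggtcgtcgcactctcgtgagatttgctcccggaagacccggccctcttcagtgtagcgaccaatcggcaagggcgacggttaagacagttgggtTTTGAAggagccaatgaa

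Glycolysis genes were lower with Ccrl2+ in 12 of 20 cases and higher in 2, median -1.18. Slc16a3, the lactate exporter MCT4, had a log2 level of 8.89 in PBS, 7.83 with Ccrl2+ and 14.12 with Ccrl2- (6.29 lower). Hexokinase 2, Hk2 (8.91 in PBS, 8.06 with Ccrl2+ and 11.71 with Ccrl2-), and the phosphofructokinase gene Pfkl (9.83 in PBS, 10.27 with Ccrl2+ and 13.64 with Ccrl2-) were 3.65 lower and 3.37 lower. Pdk1, which closes the entry of pyruvate to the mitochondrion, was 3.66 lower, Tpi1 2.35 lower and Pgk1 2.08 lower. Gapdh (17.11 against 17.51) and the monocarboxylate transporter gene Slc16a1 (12.1 against 12.13) differed by less than 2-fold, and Ldhb was at least 1.33 higher.

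Hypoxia response genes gave 16 lower and 1 higher of 22, median -1.58. Of the 22, 3 passed the floor only on the Ccrl2- array. Angptl4, an inhibitor of lipoprotein lipase, was at least 3.46 lower (4.42 in PBS, 5.17 with Ccrl2+ and 10.01 with Ccrl2-), the adenylate kinase gene Ak4 at least 3.71 lower, and the prolyl hydroxylase gene Egln3 3.96 lower (11.22 in PBS, 11.49 with Ccrl2+ and 15.45 with Ccrl2-). Ero1a (13.39 in PBS, 12.51 with Ccrl2+ and 15.94 with Ccrl2-), an oxidase of the endoplasmic reticulum, Vegfa (12.48 in PBS, 10.96 with Ccrl2+ and 14.24 with Ccrl2-) and the mitophagy gene Bnip3 (8.19 in PBS, 9.47 with Ccrl2+ and 12.63 with Ccrl2-) were 3.43 lower, 3.28 lower and 3.16 lower. The factor gene Hif1a itself was 1.64 lower (15.17 in PBS, 14.77 with Ccrl2+ and 16.41 with Ccrl2-). Mxi1 and Kdm3a lay nearest to 0, and the glycoprotein gene Stc2 was the higher member (1.87 higher). The core of the hypoxia element, ACGTG on either strand, was found in 56.7% of glycolysis windows, 50% of hypoxia windows and 21.4% of all windows, a short motif that any promoter may hold.

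Unfolded protein and integrated stress response genes were lower in 12 of 26 cases and higher in 0, with every difference below 0 and a median of -0.98. Of the 26, 1 passed the floor only on the Ccrl2- array. The folate and serine enzymes Shmt2 (12.44 in PBS, 11.3 with Ccrl2+ and 13.51 with Ccrl2-) and Mthfd2 (12.58 in PBS, 10.75 with Ccrl2+ and 12.74 with Ccrl2-) were 2.21 lower and 1.99 lower, the cysteinyl-tRNA synthetase gene Cars 1.8 lower (12.86 in PBS, 11.28 with Ccrl2+ and 13.08 with Ccrl2-) and the pseudokinase gene Trib3 1.35 lower. Edem1 and Dnajc3, of protein quality control, differed by -0.11 and -0.17. Amino acid transporter genes gave 5 lower and 2 higher of 21, median -0.6, and it became 0.09 with no floor. Slc7a11, the cystine importer, had a log2 level of 9.42 in PBS, 7.27 with Ccrl2+ and 11.98 with Ccrl2- (4.71 lower), and the arginine transporter gene Slc7a2 9.87 in PBS, 10.08 with Ccrl2+ and 13.36 with Ccrl2- (3.28 lower). Metallothionein and NRF2 target genes had 5 lower and 4 higher of 26, median -0.28, with Gsta3 (1.95 lower) and Txnrd1 (1.57 lower) lower and Gstm1 (15.22 in PBS, 16.43 with Ccrl2+ and 14.35 with Ccrl2-, 2.08 higher) and Gpx3 (1.38 higher) higher.

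Mitochondrial and lipid genes differed little or were higher. None of 32 oxidative phosphorylation genes reached 2-fold (median 0.09), and the extremes were Ndufa5 at -0.7 and Ndufa2 at 0.62. None of 23 ribosomal protein genes reached 2-fold either, with a median of -0.08 that became 0.04 with the arrays centred on negative controls. Fatty acid oxidation and uptake genes were higher in 6 of 21 cases and lower in 0, median 0.72. Of the 21, 2 passed the floor only on the Ccrl2+ array. The coactivator gene Ppargc1a (5.98 in PBS, 8.51 with Ccrl2+ and 5.23 with Ccrl2-) was at least 1.96 higher, the thioesterase gene Acot1 at least 2.12 higher, Cpt1a, which admits long-chain fatty acids to the mitochondrion, 1.34 higher (11.06 in PBS, 11.75 with Ccrl2+ and 10.41 with Ccrl2-), and lipoprotein lipase, Lpl, 1.5 higher. Cholesterol and fatty acid synthesis genes gave 1 lower of 21, Sqle (1.01 lower), and 0 higher, median -0.3.

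Collagen genes differed in both directions. Of 24 collagen genes past the floor 5 were higher and 2 lower (median 0.52, or 0.4 counting levels under the floor at the floor). Of the 24, 5 passed the floor only on the Ccrl2+ array and 1 only on the Ccrl2- array, so their direction was fixed. The fibrillar collagen genes Col1a1 (16.63 in PBS, 15.69 with Ccrl2+ and 16.45 with Ccrl2-), Col1a2 (17.06 in PBS, 16.6 with Ccrl2+ and 16.6 with Ccrl2-) and Col3a1 (17.4 in PBS, 17.15 with Ccrl2+ and 17.22 with Ccrl2-) differed by less than 2-fold. Col14a1, a collagen of fibril surfaces (10.47 in PBS, 8.65 with Ccrl2+ and 10.89 with Ccrl2-), and Col5a2 were 2.24 lower and 1.15 lower, while the basement membrane gene Col4a3 (7.79 in PBS, 8.98 with Ccrl2+ and 6.95 with Ccrl2-) was 2.03 higher and Col6a6 at least 0.54 higher. Collagen processing genes gave 3 lower and 2 higher of 17 (median -0.2), with the procollagen protease gene Adamts14 (3.27 lower) and the prolyl hydroxylase gene P4ha2 (2.82 lower) lower, Pcolce2, an enhancer of procollagen cleavage, higher (2.63 higher), and the crosslinking enzyme gene Lox near 0 (-0.12).

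Proteoglycan and glycoprotein genes of the matrix were higher more often than lower, 13 against 4 of 41, median 0.38. Sparcl1, a relative of osteonectin, had a log2 level of 9.26 in PBS, 13.31 with Ccrl2+ and 8.02 with Ccrl2- (5.29 higher), the small leucine-rich proteoglycan gene Aspn 12.65 in PBS, 14.62 with Ccrl2+ and 11.05 with Ccrl2- (3.57 higher), and Omd 6.65 in PBS, 8.44 with Ccrl2+ and 5.43 with Ccrl2- (at least 1.89 higher). Fbn2 (2.02 higher) and Efemp1 (1.93 higher), of the elastic fibre, were higher too. Tnc, tenascin C, which is laid down in wounds, was 2.28 lower (12.34 in PBS, 10.59 with Ccrl2+ and 12.87 with Ccrl2-). Elastin, Eln, differed by -0.02 and decorin, Dcn, by -0.02. Hyaluronan genes gave 5 lower and 2 higher of 9 (median -1.54, -0.55 with no floor and -3.08 at stricter floors), with the synthase gene Has2 at least 2.57 lower, the hyaluronan-binding gene Tnfaip6 3.08 lower (8.55 in PBS, 7.88 with Ccrl2+ and 10.96 with Ccrl2-), and the receptor genes Stab1 (1.65 higher) and Lyve1 (at least 0.91 higher) higher.

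Matrix metalloproteinase genes held the largest differences among matrix genes, 5 lower and 2 higher of 11, although the median of -0.14 became 0.09 with the arrays centred on negative controls. Of the 11, 3 passed the floor only on the Ccrl2- array and 1 only on the Ccrl2+ array. Mmp12, macrophage elastase, had a log2 level of 6.96 in PBS, 4.51 with Ccrl2+ and 14.48 with Ccrl2- (at least 7.93 lower), and Mmp3, stromelysin 1, 8.57 in PBS, 9.35 with Ccrl2+ and 17.08 with Ccrl2- (7.73 lower). The family members Mmp13 (at least 1.02 lower) and Mmp1b (at least 0.16 lower) only just passed the floor. The membrane protease gene Mmp14 differed by 0.07. Among TIMP, ADAMTS and other protease genes 5 of 23 were lower and 5 higher (median 0.52). The inhibitor gene Timp1 (12.03 in PBS, 11.72 with Ccrl2+ and 15.28 with Ccrl2-) and the aggrecanase gene Adamts4 were 3.56 lower and at least 2.9 lower, while the serine protease gene Htra3 (7.51 in PBS, 11.65 with Ccrl2+ and 7.03 with Ccrl2-) and Adamts1 were 4.62 higher and 1.93 higher. Integrin genes gave 6 lower and 2 higher of 15, with a median of -0.77 that became 0.14 with the floor at the 95th percentile of negative controls. Itga2, a collagen receptor subunit, was at least 4.75 lower (5.92 in PBS, 5.24 with Ccrl2+ and 11.3 with Ccrl2-) and Itga8 2.56 higher (12.68 in PBS, 13.38 with Ccrl2+ and 10.82 with Ccrl2-).

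**Figure D3:**
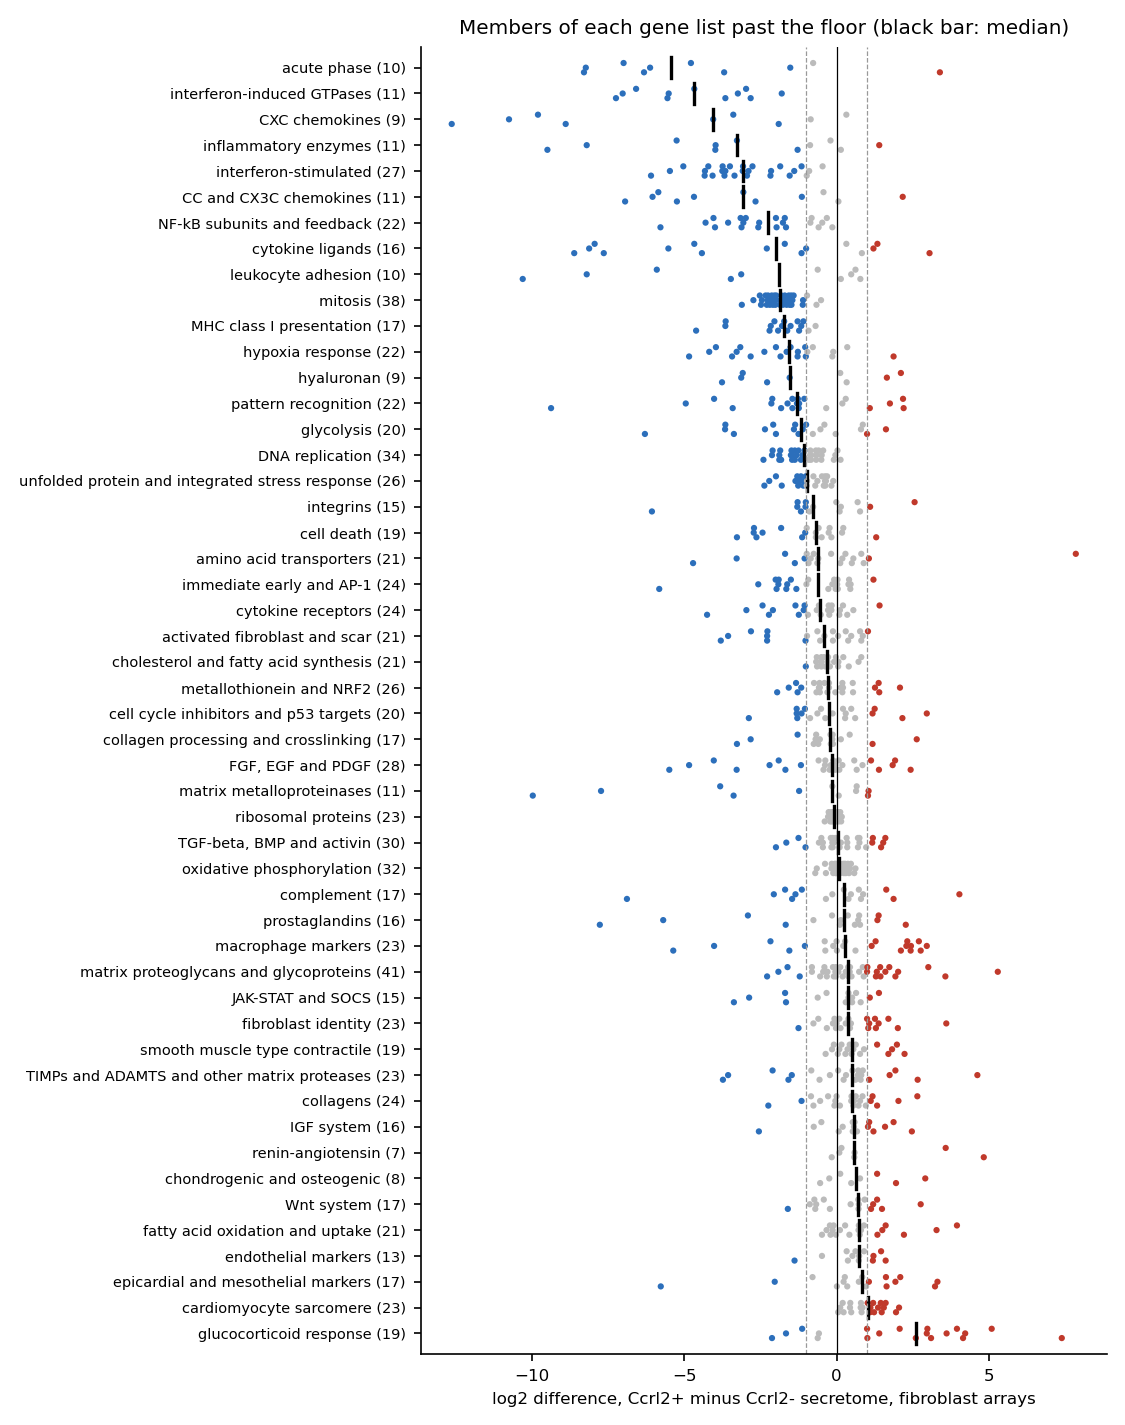
Log2 difference, Ccrl2+ minus Ccrl2- secretome, on the fibroblast arrays for each member past the floor of the lists with at least 5 such members (number in brackets), coloured where it reaches 2-fold lower (blue) or higher (red), with black bars for list medians and dashed lines at 2-fold. The differences are drawn as deposited, without counting levels under the floor at the floor. Inflammatory and interferon lists spread far to the left (acute phase median -5.45), mitosis forms a tight cluster around -1.85, ribosomal proteins sit at -0.08, and the glucocorticoid response lies at 2.6.

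Fibroblast state genes showed the following. Of 23 fibroblast identity genes 9 were higher with Ccrl2+ and 1 lower (median 0.39). Gsn, the actin-severing protein gelsolin, had a log2 level of 14.5 in PBS, 16.47 with Ccrl2+ and 12.87 with Ccrl2- (3.6 higher), and the surface antigen genes Cd34 (12.6 in PBS, 13.04 with Ccrl2+ and 11.03 with Ccrl2-) and Thy1 (11.52 in PBS, 12.29 with Ccrl2+ and 10.59 with Ccrl2-) were 2.01 higher and 1.7 higher. Activated fibroblast and scar genes gave 7 lower and 1 higher of 21 (median -0.4). Runx1, a transcription factor, stood at 9.07 in PBS, 7.8 with Ccrl2+ and 11.6 with Ccrl2- (3.8 lower), and Cthrc1, a secreted marker of scar fibroblasts, at 10.98 in PBS, 7.17 with Ccrl2+ and 9.98 with Ccrl2- (2.81 lower). Piezo2, a mechanically gated channel, and Ccn4 were 2.28 lower and 2.27 lower. Cthrc1, Piezo2 and Ccn4 had their highest level with PBS, whereas Runx1 had it with Ccrl2-. Periostin, Postn, differed by -0.12 (16.05 in PBS, 16.28 with Ccrl2+ and 16.4 with Ccrl2-).

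Contractile genes of the smooth muscle type were higher in 5 of 19 cases and lower in 0 (median 0.49). Of the 19, 2 passed the floor only on the Ccrl2+ array. The myosin light chain kinase gene Mylk (12.86 in PBS, 12.85 with Ccrl2+ and 11.15 with Ccrl2-) and the light chain gene Myl9 (14.45 in PBS, 14.37 with Ccrl2+ and 13.04 with Ccrl2-) were 1.7 higher and 1.33 higher, with PBS near the Ccrl2+ level. Lmod1, Des and the coactivator gene Myocd were 1.82 higher, at least 1.28 higher and at least 0.31 higher. Acta2, the myofibroblast actin, differed by 0.16 (17.9 in PBS, 17.54 with Ccrl2+ and 17.38 with Ccrl2-). Chondrogenic and osteogenic genes had 3 of 8 higher and 0 lower (median 0.62), namely the cartilage master regulator Sox9 (11.69 in PBS, 13.72 with Ccrl2+ and 10.81 with Ccrl2-, 2.91 higher), the calcification inhibitor Mgp (1.95 higher) and Col11a1 (1.33 higher).

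The TGF-beta and FGF lists had medians near 0 and counts in both directions. TGF-beta, BMP and activin genes gave 5 higher and 4 lower of 30, and the median of 0.03 changed sign at stricter floors. Tgfb3 (14.24 in PBS, 14.2 with Ccrl2+ and 12.6 with Ccrl2-) and the co-receptor gene Tgfbr3 (9.27 in PBS, 12.37 with Ccrl2+ and 10.84 with Ccrl2-) were 1.6 higher and 1.53 higher, while Gdf6 (11.95 in PBS, 9.99 with Ccrl2+ and 11.98 with Ccrl2-) and the differentiation inhibitor gene Id2 (15.24 in PBS, 13.93 with Ccrl2+ and 15.58 with Ccrl2-) were 1.99 lower and 1.65 lower. FGF, EGF and PDGF genes gave 8 lower and 5 higher of 28, with a median of -0.15 that became 0.04 with the arrays centred on negative controls. Fgf23, a phosphate-regulating hormone, was 5.49 lower (5.97 in PBS, 6.59 with Ccrl2+ and 12.08 with Ccrl2-), Fgf9 at least 2.94 lower, and Pdgfc 2.43 higher (7.72 in PBS, 9.4 with Ccrl2+ and 6.97 with Ccrl2-).

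IGF system genes were higher in 6 of 16 cases and lower in 1 (median 0.58). The binding proteins separated, with Igfbp6 (10.56 in PBS, 11.96 with Ccrl2+ and 9.49 with Ccrl2-) 2.47 higher and Igfbp5 (11.72 in PBS, 12.84 with Ccrl2+ and 15.39 with Ccrl2-) 2.55 lower. Igf1 (15.52 in PBS, 15.13 with Ccrl2+ and 13.92 with Ccrl2-) was 1.21 higher and the stanniocalcin gene Stc1 1.59 higher. Wnt system genes gave 5 higher and 1 lower of 17 (median 0.71). Dkk3, of the Dickkopf family, stood at 11.3 in PBS, 13.6 with Ccrl2+ and 10.84 with Ccrl2- (2.76 higher), the receptor genes Fzd2 (1.49 higher) and Lgr4 (1.33 higher) were higher, and the R-spondin gene Rspo3 was at least 0.98 lower. Sfrp2 (14.5 against 14.92) and Wnt5a (8.59 against 8.81) differed by less than 2-fold.

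Ccrl2 was itself measured in the fibroblast culture, at a log2 level of 6.5 in PBS, 7.03 with Ccrl2+ and 11.37 with Ccrl2-, 4.34 lower with the secretome of Ccrl2+ macrophages. Cmklr1, the signalling receptor for chemerin, went the other way (10.11 in PBS, 10.33 with Ccrl2+ and 8.69 with Ccrl2-, 1.64 higher). The chemerin gene Rarres2 and the receptor gene Gpr1 were below the floor on all 3 fibroblast arrays. With these 2 members past the floor the list median was -1.35, and it became 0.31 with no floor and -4.34 at the strictest floor. The Ccrl2 level describes the culture and does not check how the macrophages were sorted.

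Markers of other cell types differed between the secretome arrays, and their part in the results above was not tested. Of 23 macrophage markers past the floor 10 were higher with Ccrl2+ and 5 lower (median 0.28), and their summed log2 level was 15.46 with PBS, 16.08 with Ccrl2+ and 15.42 with Ccrl2-. Higher were the complement genes C1qa (11.22 in PBS, 12.12 with Ccrl2+ and 9.42 with Ccrl2-, 2.7 higher) and C1qc (2.96 higher), the phagocytic receptor gene Mertk (10.25 in PBS, 11.67 with Ccrl2+ and 8.91 with Ccrl2-, 2.76 higher) and Folr2 (at least 1.11 higher). Lower were the scavenger receptor gene Marco (6.03 in PBS, 6.32 with Ccrl2+ and 11.68 with Ccrl2-, at least 5.13 lower), Cd14, given above, and Adgre1 (9.24 in PBS, 9.41 with Ccrl2+ and 10.45 with Ccrl2-, 1.04 lower). Lyz2 (12.52 in PBS, 13.47 with Ccrl2+ and 13.84 with Ccrl2-), Csf1r (11.95 in PBS, 11.13 with Ccrl2+ and 10.85 with Ccrl2-) and Ptprc (9.18 against 9.17) differed by less than 2-fold. All 16 neutrophil and lymphocyte markers on the array were below the floor on both secretome arrays, among them S100a8 (3.38 against 3.38) and S100a9 (4.56 against 4.49), and Ly6g was not among the named genes.

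Sarcomere genes were higher with Ccrl2+ in 12 of 23 cases and lower in 0, and every difference was above 0 (median 1.02). Of the 23, 1 passed the floor only on the Ccrl2+ array. The summed log2 level was 17.58 with PBS, 18.31 with Ccrl2+ and 17.04 with Ccrl2-. Myoz2 (7.34 in PBS, 9.8 with Ccrl2+ and 7.75 with Ccrl2-) was 2.05 higher, Tnnt2, given above, 1.95 higher, Actn2 (9.2 in PBS, 10.6 with Ccrl2+ and 8.99 with Ccrl2-) 1.61 higher, Myh6 (9.63 in PBS, 11.13 with Ccrl2+ and 9.65 with Ccrl2-) 1.48 higher and Tnni3 1.02 higher, while Mybpc3 differed by 0.05. In cardiomyocytes the median difference of these 23 genes was 0.16. Epicardial and mesothelial markers gave 7 higher and 2 lower of 17 (median 0.84), and summed log2 levels of 16.8, 17.82 and 16.4 in the same order. Mesothelin, Msln (10.56 in PBS, 13.28 with Ccrl2+ and 9.97 with Ccrl2-, 3.31 higher), and Aldh1a1 (14.7 in PBS, 16.7 with Ccrl2+ and 13.47 with Ccrl2-, 3.23 higher) were higher, Aldh1a2, which makes retinoic acid, was lower (11.93 in PBS, 8.88 with Ccrl2+ and 14.65 with Ccrl2-, 5.77 lower), and Wt1 differed by 0.23 and Upk3b by 1.06.

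Endothelial markers gave 4 higher and 1 lower of 13 (median 0.73), led by Fabp4 (8.05 in PBS, 11.41 with Ccrl2+ and 9.8 with Ccrl2-, 1.61 higher) and Emcn (1.46 higher), with Flt1, given above, lower (1.38 lower), and summed log2 levels of 13.23, 13.54 and 12.9. Of 4 mural markers past the floor, Ndufa4l2 was 4.36 lower (5.76 in PBS, 6.78 with Ccrl2+ and 11.14 with Ccrl2-), Cspg4, Mcam and Notch3 differed by less than 2-fold, the defining genes Rgs5 and Kcnj8 were below the floor, and the median of -0.06 became 0.08 with no floor. Neuronal and Schwann markers past the floor were Tubb3 (1.57 lower) and Ncam1 (1.0 lower), with a median of -1.28 (-0.09 with no floor). Fibroblast identity genes summed to 20.47 with PBS, 20.5 with Ccrl2+ and 20.08 with Ccrl2-.

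The same secretomes gave almost no difference in cardiomyocytes. Of 9482 genes past the floor in both cell types, 18 differed by at least 2-fold between the cardiomyocyte arrays, and 4 of these did so in fibroblasts. Of all genes past the floor in fibroblasts 18.6% did so, and an overlap of 4 of 18 does not stand apart from that share. The chemokine gene Ccl9 was lower with Ccrl2+ in both (-1.14 in fibroblasts, -1.51 in cardiomyocytes), and so was the macrophage gene Aif1 (-2.17 and -1.0). The fibrillar collagen genes Col1a1 (-1.23) and Col3a1 (-1.16) were lower in cardiomyocytes and below 2-fold in fibroblasts (-0.76 and -0.07). List medians in cardiomyocytes lay between -0.54 and 0.17 for the lists with at least 5 genes past the floor in both cell types, while those in fibroblasts ran from -5.45 to 2.6. Whether the difference between cell types exceeds what replicates would show was not tested.

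**Figure D4:**
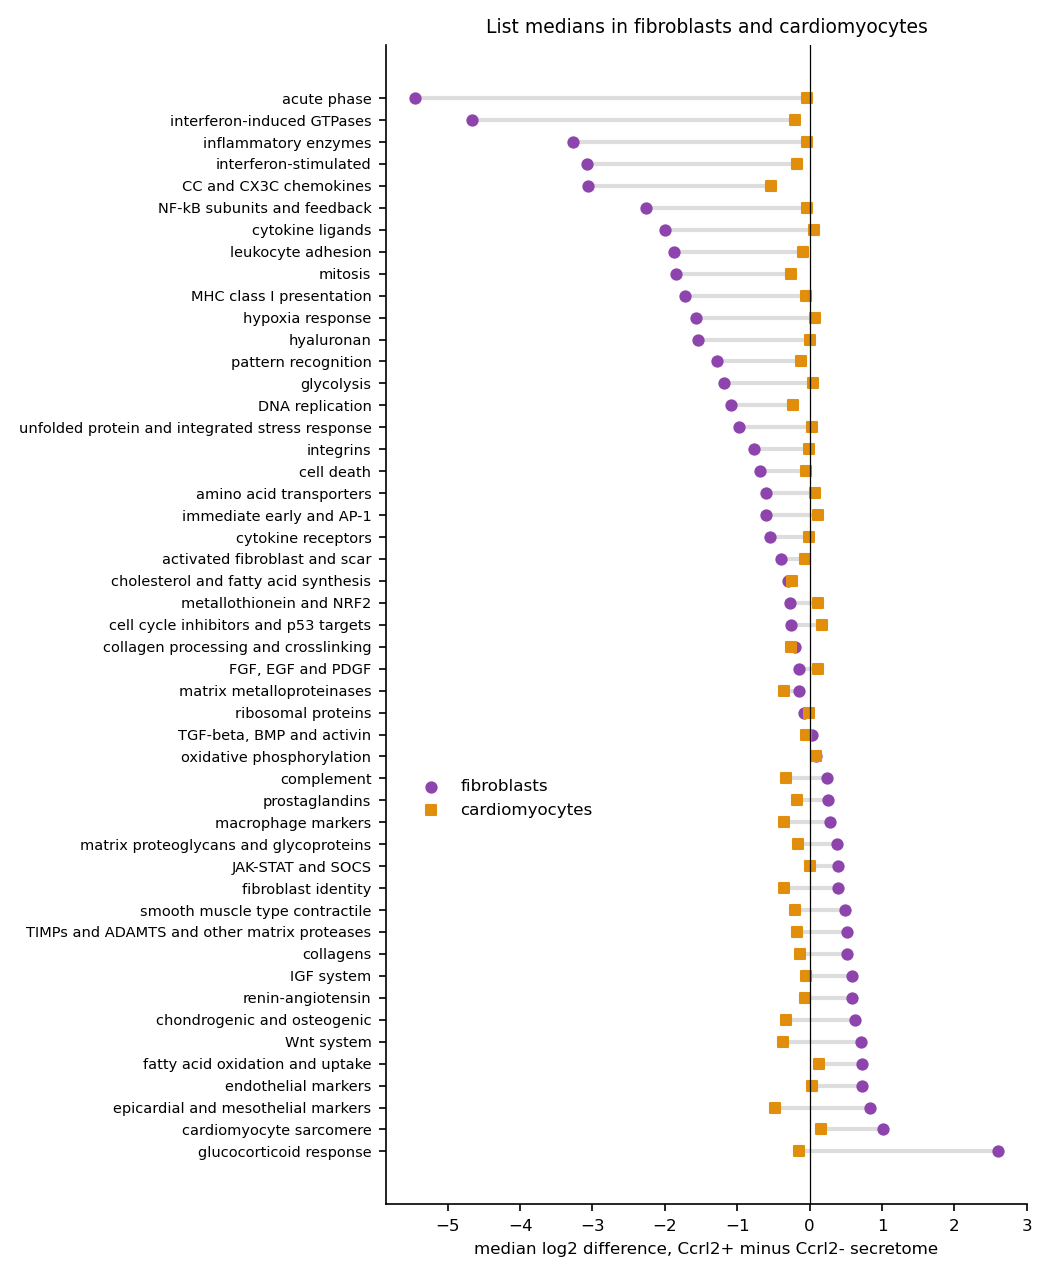
Median log2 difference, Ccrl2+ minus Ccrl2- secretome, of each list with at least 5 members past the floor in both cell types, in fibroblasts (circles) and cardiomyocytes (squares), with cardiomyocyte medians taken over the members past the floor there too and 1 array per group. Fibroblast medians run from -5.45 (acute phase) to 2.6 (glucocorticoid response), and all cardiomyocyte medians stay within 0.54 of 0.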

How the data were processed

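Total RNA (1 to 8 ug) was measured on Affymetrix mouse arrays, 1 array for each of 6 groups. The authors deposited log2 values per probe set, for which the submitters' processing notes name Affymetrix Expression Console. Its version, not given in the sources used here, stays unknown, as do the algorithm and the build. The 6 arrays had medians of 6.5 to 6.59 over named genes, so a shift of most genes in 1 direction could have been removed before deposit. Values are measured, not counted, and the number of arrays limits their precision.

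Of 28846 probe sets, 19572 carried 1 gene symbol in the platform annotation, giving 19505 genes, with the brighter probe set kept for 55 symbols that had several. A gene was described where the higher of both fibroblast values reached 6.55, the median of all named values. Where the lower value lay under this floor, the difference given for a single gene was counted from the floor and written as at least. List medians, ranges and counts, and the values of neighbour runs, used the differences as deposited unless counting at the floor is stated. List counts and medians include genes past the floor on only 1 array, whose direction the floor fixed. With 1 array a side no test was possible, and a call means a 2-fold difference, a log2 difference of 1 between the values as deposited. A called gene can therefore have a bound under 2-fold, as Col6a6 (at least 0.54 higher) and Mmp1b (at least 0.16 lower) did. No batch column was used.

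The members and the 56 gene lists were chosen with earlier results of these data known, so they support nothing on their own. Genes were named by a rule: the 25 largest differences in each direction (predicted, olfactory, vomeronasal, small RNA, histone cluster and clone symbols left out), in each list up to 6 members with the largest difference and up to 2 nearest 0, all members of lists of 10 genes or fewer, the cell type markers and Ccrl2. Acta2, Agmo, Aif1, Ccl6, Ccl9, Cebpd, Ddit4, Dusp1, Hif1a, Hsd11b1, Il15, Klf15, Klf9, Ldhb, Mki67, Nfkbia, Nox4, Nr3c1, Per1 and Serpina3n, and the genes of the neighbour runs in the closing section, were named outside the rule after their values were seen. Promoter windows come from RefSeq (GRCm38.p6). Alternatives were other folds and floors, quantile normalization, centring on negative controls, removal of a loess trend (span 0.4) and averaged probe sets. Calculations used Python 3.11.15 with numpy 2.4.6, pandas 2.3.3, scipy 1.17.1 and statsmodels 0.14.6, with figures by matplotlib 3.10.9, and were tested on simulated data.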

Additional observations from a re-analysis of the deposited data

Results flagged for a closer look

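Of the 4 genes that differed by at least 2-fold in both cell types, 2 differed in the same direction and 2 in opposite directions. These 4 were among 18 genes at 2-fold in cardiomyocytes, and 18.6% of all genes past the floor reached 2-fold in fibroblasts. An overlap of this size does not stand apart, and the difference between cell types was not tested. Agmo, which cleaves ether lipids, had fibroblast log2 levels of 7.17 in PBS, 8.35 with Ccrl2+ and 5.72 with Ccrl2-, a difference of 2.63 (at least 1.8 with the floor), and cardiomyocyte levels of 6.13 in PBS, 5.88 with Ccrl2+ and 7.01 with Ccrl2-, a difference of -1.13. Col11a1, a minor fibrillar collagen, had fibroblast log2 levels of 11.45 in PBS, 12.24 with Ccrl2+ and 10.91 with Ccrl2-, a difference of 1.33, and cardiomyocyte levels of 6.89, 7.7 and 8.89 in the same order, a difference of -1.19.

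Probe sets without a gene name also differed. There were 2634 such probe sets, 999 of them past the floor. With Ccrl2+ 72 of these were higher by 2-fold or more and 80 lower (15.2% in all), and 18 differed by at least 8-fold, 4 higher and 14 lower (1.8%). Named genes and negative controls past the floor reached 8-fold in 2.3% and 0.898% of cases.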

How the results depend on the processing

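The values of the 50 leading genes (25 in each direction) kept their direction and their side of 2-fold in 394 of 394 recomputed cases. These genes were picked for large differences, at least 3.43 from the floor, so this outcome was nearly fixed in advance. Genes under a stricter floor were not counted, which left 49 of the 50 at the 75th percentile floor and 45 at the negative control floor. With other fold thresholds 1854 genes were higher and 1951 lower at 1.5-fold, 346 and 512 at 3-fold, 224 and 335 at 4-fold, and 65 and 168 at 8-fold. Stricter floors left 463 higher and 553 lower (75th percentile of named values) and 399 and 464 (95th percentile of negative controls), fewer because fewer genes were kept. The other settings stayed within 1.5 times: 1015 and 1124 with no floor, 782 and 926 with values raised to the floor, 949 and 952 after quantile normalization, 834 and 1034 without the loess trend, and 866 and 1023 with probe sets averaged. Centring the arrays on negative controls moved the median of all genes by 0.12 and gave 1048 higher and 863 lower, so the share of higher calls went from 45.9% to 54.8%, and a count of higher against lower genes has no settled direction. List medians depended on the floor: of 21 lists with a median of at least 2-fold, 11 moved by over 1.5 times in some setting, and 1 of them, cytokine ligands (-3.23 with the arrays centred on negative controls), in a setting that leaves the floor alone. Of 55 lists with a median, 42 kept its sign in every setting, as did 20 of 21 lists whose median was at least 2-fold. The exception was the chemerin list (2 genes past the floor), whose median became 0.31 with no floor. The medians of the flavin monooxygenases (1.43) and neuronal markers (-0.09) with no floor, cytokine ligands (-7.79) and endothelial markers (1.46) at the negative control floor, and ribosomal proteins (0.04) and collagen processing (-0.08) after centring also moved. With no floor the CXC median was -1.46 and the acute phase median -0.77. Both then also count members under the floor on both arrays, since only 9 of 15 CXC and 10 of 19 acute phase genes were past it. The cause of the other moves was not tested. No paired analysis was possible because each group had 1 array, and no array could be left out. Genes near the floor have only bounds.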

Other observations

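Some neighbouring genes differed together. Among 10142 genes past the floor placed in genome order, 19 runs of at least 4 adjacent genes shared a direction at 2-fold or more, 5 higher and 14 lower with Ccrl2+. The glutathione transferase genes Gstm7, Gstm6, Gstm3, Gstm2, Gstm1 and Gstm4 formed the longest higher run (differences of 1.17 to 2.4, median 1.53), although probes for these close copies can bind related transcripts. The lipid transporter genes Abca8b, Abca8a, Abca9 and Abca6 were higher (median 1.79), and so were the calcium-binding genes S100a1, S100a13, S100a16 and S100a4 (median 1.17).

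Lower runs held Slfn9, Slfn8, Slfn10-ps and Slfn2 of the interferon-induced Schlafen family (median -2.97), the C-type lectin genes Clec4a1, Clec4n, Clec4d and Clec4e (median -2.26), the complement genes C1ra, C1s1, C1rb and C1s2 (median -1.57) and the proteases Mmp13, Mmp12, Mmp1b and Mmp3 (median -5.77). In these runs neighbours are often copies of 1 gene, so their probes and their regulation are not independent. How many runs unrelated genes would give was not tested.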
